A study of Rattus norvegicus with 12 samples.

Results

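The genes described here are a module of cyclins and mitotic machinery, taken by name from a list of 42 symbols, with no cutoff on a measured value. The arrays measured 41 of them, out of 14217 named genes, through 62 probe sets. Tpx2, the remaining listed gene, was not analysed here. The samples were 12 rat livers or liver tumours on single-colour Rat 230 2.0 arrays, with 3 arrays in each of 4 groups, and all rats were adult male Sprague-Dawley. Controls were injected with distilled water, and no source used here gives the time at which they were killed. The other groups had weekly intraperitoneal diethylnitrosamine (DEN), an alkylating liver carcinogen, at 70 mg/kg in a 10-week course. Tissue came from the end of week 5 for the hepatitis group, from weeks 13 to 14 for the cirrhosis group and from weeks 23 to 24 for the hepatocellular carcinoma (HCC) group. The labels count these weeks from DEN treatment without saying whether from its start or its end. The tissue label says liver for all samples, while the series text speaks of tumour tissue for the HCC group. Nothing in the labels ties each array to a rat of its own, and the p-values measure only how these samples spread, which may be technical.

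Cyclins are the regulatory subunits of the cyclin-dependent kinases (CDKs), and successive cyclins carry a cell from growth-factor response through DNA synthesis into mitosis. Kinases, checkpoint proteins and microtubule motors then build the spindle and divide the cell, and the anaphase-promoting complex (APC/C) ends mitosis by marking cyclins and securin for destruction. Most hepatocytes of an adult liver are out of the cell cycle and re-enter it after injury or loss of tissue.

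The unit throughout is the deposited intensity of a probe set, and differences are of means of log2(intensity + 16), a scale that understates the change of dim genes. For each gene the brightest probe set was used. A gene was called when the Benjamini-Hochberg adjusted p of limma's moderated test was under 0.05 over all 14217 genes. Of the 41 members, 34 had an intensity of 16 or more on every array, 7 were under 16 on at least 1 array (Ccna2, Ccne2, Cdc25b, Plk4, Melk, Bub1b and Ttk), and 0 were under 16 on all arrays. The 12 arrays had median intensities of 28.7 to 30.9. For Gapdh, a check of RNA integrity, the 3' control probe set exceeded the 5' one by 1.35, 2.43 and 3.14 (log2) on HCC replicates 1 to 3 and by 0.38 to 1.02 elsewhere. For actin the excess was 3.82, 4.28 and 4.85 on those arrays and 2.14 to 2.69 elsewhere. Every HCC array was thus above every other array in both. The part of RNA integrity in the HCC differences below was not tested. The mean of the hepatocyte markers was high on all 12 arrays, at 12.19 to 12.44 (log2) outside HCC and 11.14, 11.86 and 11.09 on HCC replicates 1 to 3. Of these markers Tat was dim in HCC, at 38.2, 158 and 39.2, against 266 to 526 elsewhere. Tissue pieces hold many cell types, so a larger share of dividing cells and more RNA per dividing cell cannot be told apart in any value below.

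Most members rose in HCC, and 0 were called against control at the earlier stages. Of the 41 members 33 rose in HCC against control and 0 fell, with 30 of the 33 rising at least 2-fold. That is 80.5% of the members, beside 38.7% of all genes called in either direction and 20% called higher. The median member difference was 1.29 (log2), against 0.01 over all genes. In 32 members, or 78%, every HCC array lay above every control, as in 24% of all genes. Against cirrhosis 33 members rose and 0 fell, and against hepatitis 25 rose and 1 fell, where 19.4% and 17.8% of all genes were called higher. All 3 stages were set against the same control arrays, so these comparisons are not independent. Of the 33 calls against control 25 held whichever array was left out; the other 8 were Ccnb1, Ccnb2, Ccnf, Aurkb, Ttk, Kif11, Kif20a and Racgap1. With only the 6 arrays of HCC and control in the fit, 22 members were called, which was not counted over all genes.

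**Figure D1:**
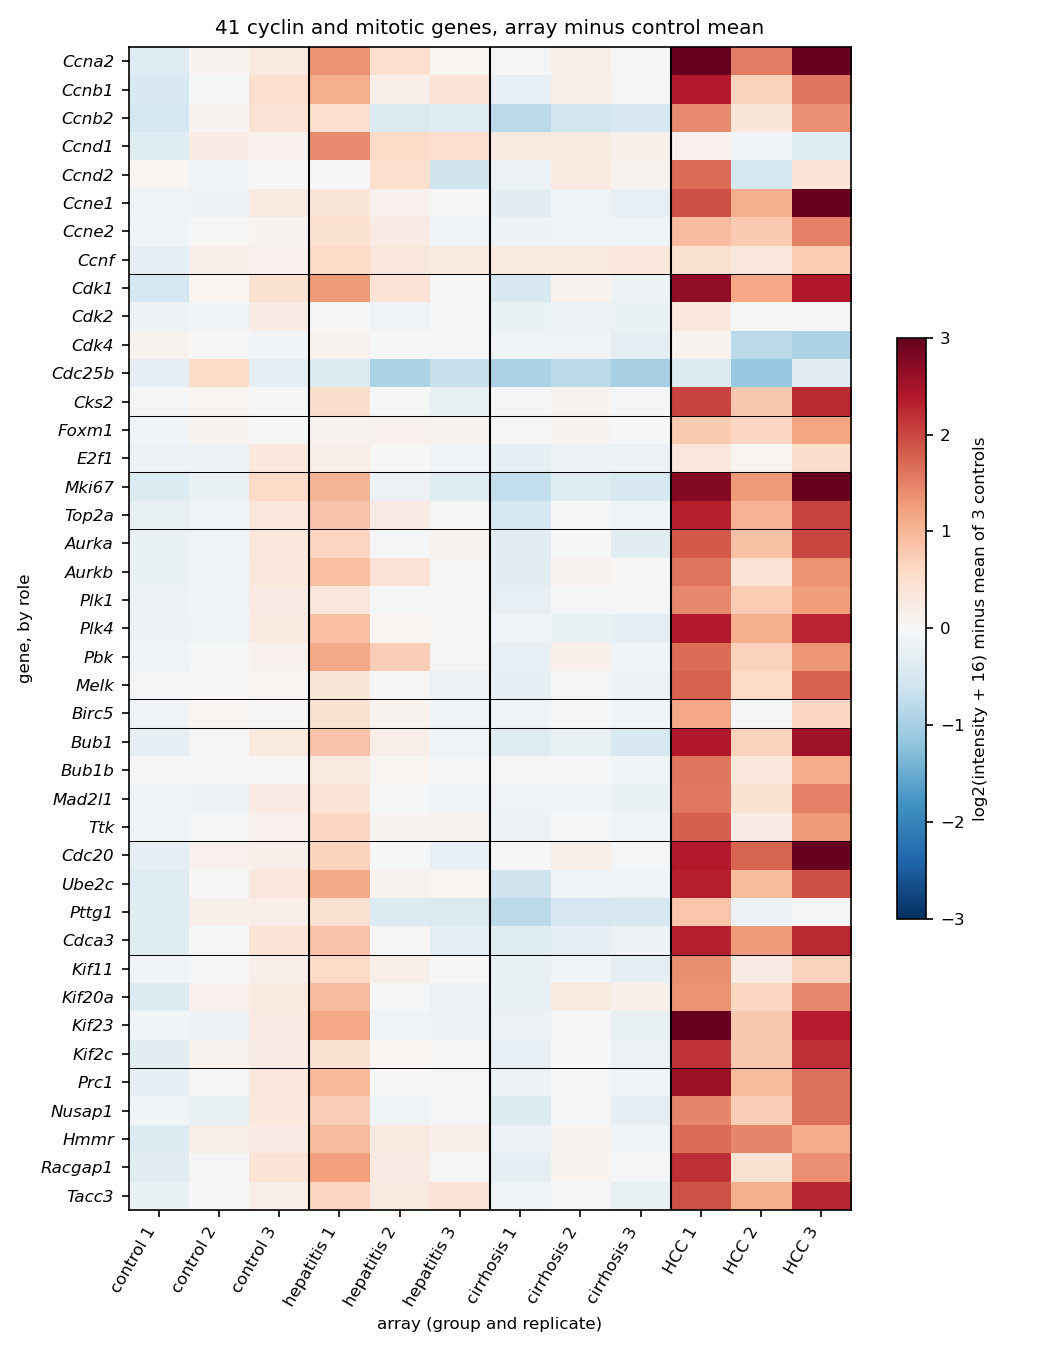
Each row is a member gene, grouped by role between the horizontal lines, and each column is an array. Colour gives log2(intensity + 16) minus the mean of the 3 controls, drawn from -3 to 3, with values past 3 in the darkest red. The HCC columns are red in most rows and HCC replicate 2 is the palest of them, with a median of 0.7 against 1.68 and 1.5 on replicates 1 and 3. Hepatitis replicate 1 is redder than the other hepatitis columns, with a median of 0.65.

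Many late cell cycle genes carry a pair of short sequence elements near the start of transcription. One is the CHR (cell cycle genes homology region), an element known to be bound by repressor and activator complexes of the cell cycle, and the other is the CCAAT box, bound by NF-Y. RefSeq promoter windows on build GRCr8, from 250 bases before to 50 after the annotated start, existed for 31 members. CHR letters (TTTGAA or TTCGAA, either strand) stood in 20 of the 31, or 64.5%, beside 19.7% of all 33469 promoters in the table and 15% of 11733 genes measured on the arrays. CCAAT on either strand stood in 22, or 71.0%, against 37.5% of all promoters and 38.6% of measured genes. Both stood in 17 members, or 54.8%, against 7.95% and 6.15%. The 8-letter E2F forms TTTCCCGC and TTTGGCGC were in 0 of the 31 members, against 1.45% of all promoters and 2.65% of measured genes. TTCGAA reads the same on both strands, and 1 CHR match, in Mki67, overlapped a CCAAT match.

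The stretches below show how these letters are laid out. Each holds the 120 bases just before the annotated start, written 5' to 3' along the gene, with CHR and CCAAT matches in capitals. Cdc20, Top2a and Cks2 have both kinds, Ccnf has a CHR alone within the stretch, Cdca3 and Ccnb1 have CCAAT alone, and Cdk4, a member not called in HCC, has neither.
Cdc20 (GRCr8, chr5:137255800-137255919, minus strand): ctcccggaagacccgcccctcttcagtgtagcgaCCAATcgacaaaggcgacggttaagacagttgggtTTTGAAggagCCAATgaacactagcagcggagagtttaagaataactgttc
Top2a (GRCr8, chr10:84473094-84473213, minus strand): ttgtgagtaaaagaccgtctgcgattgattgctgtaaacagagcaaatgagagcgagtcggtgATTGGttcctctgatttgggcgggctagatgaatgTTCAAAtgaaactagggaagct
Cks2 (GRCr8, chr17:13727520-13727639, minus strand): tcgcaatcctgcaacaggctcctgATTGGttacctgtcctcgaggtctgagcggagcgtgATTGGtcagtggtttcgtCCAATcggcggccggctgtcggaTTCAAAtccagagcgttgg
Ccnf (GRCr8, chr10:13783670-13783789, minus strand): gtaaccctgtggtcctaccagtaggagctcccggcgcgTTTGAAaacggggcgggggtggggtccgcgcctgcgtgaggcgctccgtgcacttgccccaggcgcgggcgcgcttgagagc
Cdca3 (GRCr8, chr4:159321083-159321202, plus strand): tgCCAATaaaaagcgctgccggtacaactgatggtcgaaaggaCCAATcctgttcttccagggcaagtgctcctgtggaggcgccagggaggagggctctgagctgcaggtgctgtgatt
Ccnb1 (GRCr8, chr2:33655226-33655345, minus strand): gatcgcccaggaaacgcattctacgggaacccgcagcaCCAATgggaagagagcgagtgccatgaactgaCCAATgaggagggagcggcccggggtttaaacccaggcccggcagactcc
Cdk4 (GRCr8, chr7:64771333-64771452, plus strand): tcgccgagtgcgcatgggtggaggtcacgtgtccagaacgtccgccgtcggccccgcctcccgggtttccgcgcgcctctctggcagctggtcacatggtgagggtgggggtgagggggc

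Among members with a window, CHR letters were in 17 of 26 that rose in HCC (65.4%) and in 3 of 5 that were not called (60.0%). CCAAT was in 18 of the 26 (69.2%) and in 4 of the 5 (80.0%). Both were in 14 of the 26 (53.8%) and in 3 of the 5 (60.0%). Of the members not called, Birc5, Cdc25b and Pttg1 had both, Cdk2 had CCAAT alone and Cdk4 had neither. Aurka, Bub1, Ccne1, Kif2c and Melk rose with neither in their windows. A match describes letters only, and a window without one says nothing of binding.

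**Figure D2:**
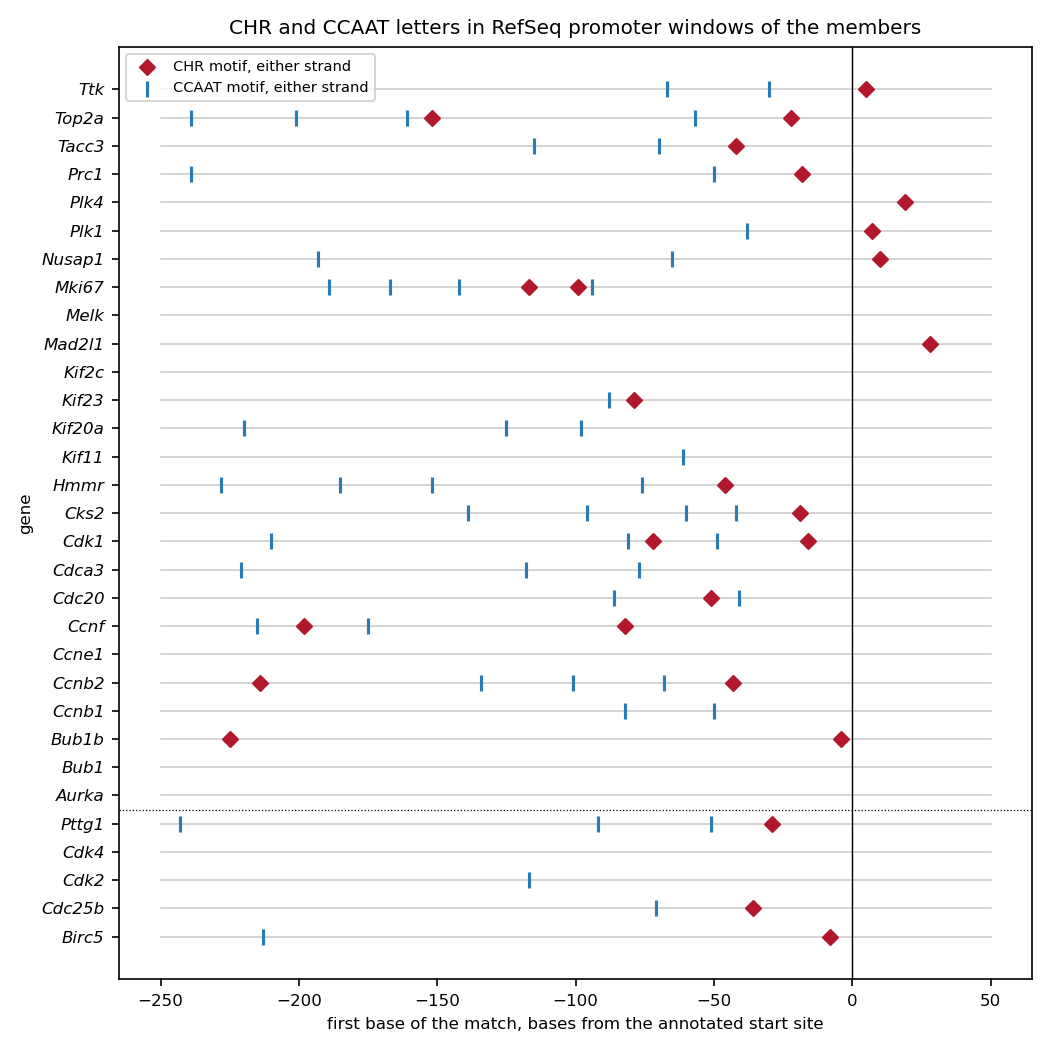
Each line is a member, with the annotated start of its promoter window or windows at 0 and the horizontal axis in bases from it. Red diamonds mark the first base of a CHR match and blue ticks that of a CCAAT match on either strand; genes above the dotted line rose in HCC against control. CHR matches lie within the last 120 bases before the start in 15 members.

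Of the 8 cyclins, 6 rose in HCC. Ccna2 encodes cyclin A2, which acts in DNA synthesis and on entry into mitosis. Its intensity was 15.1, 27.3 and 34.4 on the 3 controls, 87.4, 41.5 and 26.8 in hepatitis, 23.5, 30.4 and 24.4 in cirrhosis, and 332, 103 and 418 on the HCC arrays, in replicate order here and below. All HCC arrays lay above all others, and hepatitis replicate 1 stood above every control. The rise against control was 2.68 ± 0.46 (log2 scale, standard error, 3 arrays per group; limma adjusted p = 0.00159), the largest in the module.

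Ccnb1 encodes cyclin B1, the mitotic partner of Cdk1. Its values were 26.6, 40.3 and 66.1 in the controls, 108, 49.2 and 59.98 in hepatitis, 33.0, 49.7 and 39.7 in cirrhosis, and 285, 78.4 and 160 on the HCC arrays. HCC lay above control and cirrhosis, but HCC replicate 2 was below hepatitis replicate 1. The difference from control was 1.55 ± 0.41 (limma adjusted p = 0.0132), and without control replicate 1 it was 1.33 with an adjusted p of 0.0524. Ccnb2, a second B-type cyclin, rose by 1.05 although HCC replicate 2, at 119.9, was under control replicate 3, at 128.

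The E-type cyclins activate Cdk2 at the start of DNA synthesis, and both rose. Ccne1 had 33.1, 32.4 and 48.8 in the controls, 52.5, 42.9 and 35.4 in hepatitis, 27.1, 33.5 and 28.9 in cirrhosis, and 188, 97.5 and 429 on the HCC arrays. The HCC arrays were all above the other 9 and differed among themselves more than those did. Ccne1 rose by 2.02 ± 0.39 and Ccne2 by 1.07 ± 0.18 (limma adjusted p = 0.0028 and 0.00161). Ccne2 was dim outside HCC, at 8.4, 9.25 and 11.3 in control, 19.4, 14.6 and 7.9 in hepatitis and 7.05, 7.53 and 7.55 in cirrhosis. In HCC it reached 32.4, 28.0 and 56.6, above every other array. Cyclin F (Ccnf), a substrate receptor of an SCF ubiquitin ligase, rose by 0.52 ± 0.14 (limma adjusted p = 0.0183).

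Cyclin D1 (Ccnd1), which answers growth factors and activates Cdk4 and Cdk6, took another course. Its intensity was 295, 447 and 421 in the controls, 1047, 580.5 and 549.98 in hepatitis, 467, 461 and 428 in cirrhosis, and 419, 361 and 291 on the HCC arrays. All 3 hepatitis arrays lay above all the others on this brightest probe set, and the HCC and control ranges overlapped. On its dimmest probe set hepatitis replicate 3, at 192, was below the cirrhosis arrays, at 218, 215 and 233. It was the 1 member called lower in HCC than in hepatitis, at -0.94 ± 0.24 (limma adjusted p = 0.0131), as 17% of all genes were. That call was lost in limma with weights for each group's spread (adjusted p = 0.0953) and with those 2 groups alone (0.0757). All 3 of its probe sets were called lower there in limma's probe-set fit, at -0.86, -0.94 and -1.13, where 29% of all probe sets were called. Against control the hepatitis difference of 0.84 ± 0.24 was not called (limma adjusted p = 0.0956), though with the same weights it was, at 0.0342. In HCC it was -0.11 ± 0.24 from control (limma adjusted p = 0.768), with a sign that turned under other settings. Its dimmer probe sets differed there by 0.39 and -0.10, also not called. Cyclin D2 (Ccnd2) was at 159, 143 and 154 in control and 523, 100.3 and 204 in HCC, a difference of 0.51 ± 0.47 that was not called (limma adjusted p = 0.431).

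**Figure D3:**
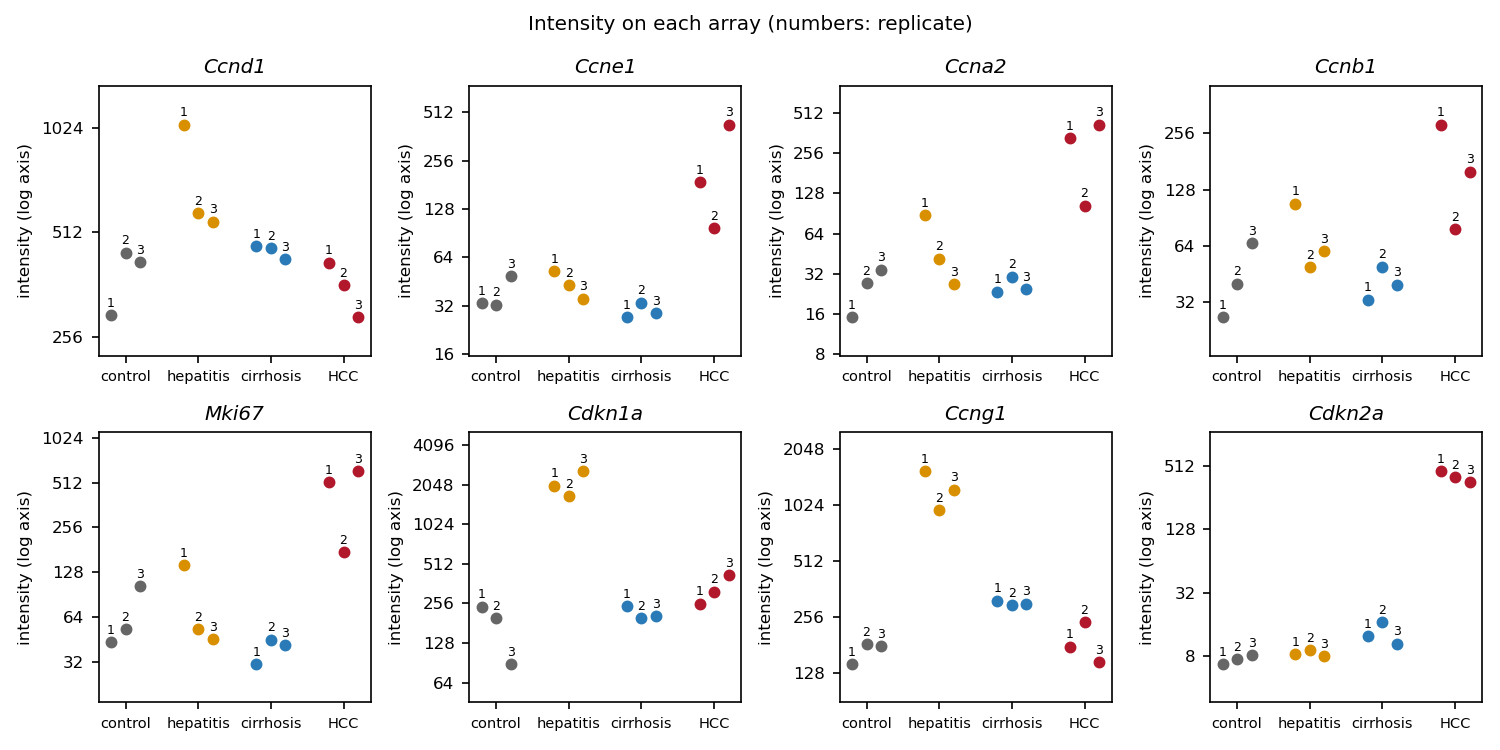
Points are the intensities of 8 genes on each array, numbered by replicate, with a log vertical axis that differs between panels. Ccnd1 is highest in hepatitis, while Ccne1, Ccna2 and Mki67 are highest in HCC. Ccnb1 is too, except that HCC replicate 2, at 78.4, is below hepatitis replicate 1, at 108. Replicate 2 is the lowest HCC array of Ccne1, Ccna2, Mki67 and Ccnb1. Cdkn1a and Ccng1 peak in hepatitis on all 3 arrays, and Cdkn2a stands at 361 to 458 in HCC against 6.8 to 16.8 elsewhere.

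Among 5 CDKs and their activators, 2 rose. Cdk1, the kinase of mitotic entry, was at 41.6, 70.7 and 97.6 in the controls, 185, 94.1 and 66.4 in hepatitis, 44.5, 72.8 and 58.2 in cirrhosis, and 505, 169 and 418 on the HCC arrays. HCC lay above control on every array, and replicate 2 was below hepatitis replicate 1. The rise was 2.07 ± 0.44 (limma adjusted p = 0.00466). Cks2, a small subunit that docks CDKs on their substrates, rose by 1.69 ± 0.32 (limma adjusted p = 0.00264), from 316 ± 14.8 to 1147 ± 512 (SD, n = 3).

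The interphase kinases were not called. Cdk2 differed from control by 0.10 ± 0.11 and Cdk4, the cyclin D partner, by -0.56 ± 0.22 (limma adjusted p = 0.544 and 0.0732). Cdk4 was at 398.5 on HCC replicate 1, beside control replicate 1 at 398, and at 203 and 185 on replicates 2 and 3, below the lowest control at 349. Cdc25b, a phosphatase that removes the inhibitory phosphate from CDKs, was lower on every HCC array than on every control, at 33.0, 13.6 and 35.6 against 37.1, 81 and 37.2. The difference of -0.62 ± 0.27 was not called (limma adjusted p = 0.0974), with control replicate 2 standing apart at 81.

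Foxm1 encodes the forkhead factor that drives transcription of mitotic genes. It had 22.2, 26.7 and 25.1 in the controls, 27.8, 28.8 and 27.4 in hepatitis, 25.6, 26.9 and 25.2 in cirrhosis, and 53.5, 46.6 and 75.7 on the HCC arrays. Values outside HCC lay close together, and all HCC arrays stood above them. The rise of 0.86 ± 0.12 had the smallest p of the members in this comparison (limma adjusted p = 0.000488). Its dimmer probe set was not called, at 0.11.

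E2f1, a factor that opens the DNA synthesis programme, was at 31.5, 31.7 and 50.7 in the controls, 44.9, 38.0 and 33.98 in hepatitis, 27.8, 31.8 and 30.9 in cirrhosis, and 51.8, 39.5 and 61.2 on the HCC arrays. Control replicate 3 lay within the HCC range. The difference from control was 0.31 ± 0.15 (limma adjusted p = 0.136), and 0.48 with adjusted p = 0.0252 in limma without control replicate 3 (0.44 and 0.0406 without HCC replicate 2). Against cirrhosis E2f1 rose by 0.52 ± 0.15 (limma adjusted p = 0.0233).

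Mki67 encodes the Ki-67 antigen, the usual stain for cells in cycle. Its values were 43.3, 52.7 and 103 in the controls, 143, 53.0 and 45.3 in hepatitis, 30.9, 45.0 and 41.5 in cirrhosis, and 513, 175 and 612 on the HCC arrays. Control replicate 3 and hepatitis replicate 1 stood above their groups, and below every HCC array. Mki67 rose by 2.34 ± 0.49 (limma adjusted p = 0.00439).

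Top2a encodes the topoisomerase that untangles sister DNA. It was at 40.7, 44.3 and 66.9 in the controls, 103, 62.0 and 47.0 in hepatitis, 29.8, 49.4 and 43.8 in cirrhosis, and 317, 120.4 and 251 on the HCC arrays. All HCC arrays were again the highest, and the rise was 1.81 ± 0.34 (limma adjusted p = 0.0025). Its CHR and CCAAT letters are in the second stretch printed above.

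All 6 mitotic kinases rose in HCC, by 1.12 to 1.92. Aurora kinase A (Aurka), which matures centrosomes, had 35.5, 38.7 and 58.7 in the controls, 77.3, 42.5 and 48.5 in hepatitis, 31.6, 43.8 and 31.4 in cirrhosis, and 196, 92.5 and 222 on the HCC arrays, a rise of 1.57 ± 0.29 (limma adjusted p = 0.0025). HCC did not overlap the other groups. Plk1, the polo kinase of mitotic entry and exit, had 39.3, 41.9 and 56.5 in the controls, 62.1, 43.3 and 42.7 in hepatitis, 36.2, 43.6 and 43.5 in cirrhosis, and 152, 87.4 and 129.5 on the HCC arrays, a rise of 1.15 ± 0.18 (limma adjusted p = 0.00112). Its lowest HCC array was again replicate 2, above every other group.

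Plk4, the kinase of centriole duplication, was at 17.1, 17.8 and 28.0 in the controls, 52.4, 22.2 and 21.3 in hepatitis, 17.6, 15.3 and 14.6 in cirrhosis, and 174, 61.7 and 163 on the HCC arrays. Hepatitis replicate 1 came within the gap between control and HCC. Plk4 rose by 1.92 ± 0.34 (limma adjusted p = 0.0018). Aurora kinase B (Aurkb), the enzyme of the chromosomal passenger complex, rose by 1.12, Pbk, a mitotic serine/threonine kinase, by 1.23 and Melk, a kinase expressed in dividing cells, by 1.39. Survivin (Birc5), a passenger complex subunit, was at 27.4, 32.5 and 31.8 in control and 88, 29.5 and 55.0 in HCC. HCC replicate 2 lay among the controls, and the difference of 0.58 ± 0.25 was not called (limma adjusted p = 0.0954).

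The 4 spindle checkpoint genes, which hold anaphase until chromosomes are attached, all rose. The kinase gene Bub1 rose by 1.88 ± 0.44, Mad2l1, the inhibitor of Cdc20, by 1.19 ± 0.27, the kinase gene Ttk by 1.10 ± 0.33 and Bub1b by 1.03 ± 0.25 (limma adjusted p = 0.00767, 0.00697, 0.0233 and 0.00903). Bub1b was dim, at 9.83 to 11.2 in control and 17.7 to 65.0 in HCC.

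Among the APC/C coactivator, its conjugating enzyme and its substrates, 3 of 4 rose. Cdc20 activates the APC/C at anaphase. It was at 61.6, 86.2 and 87.1 in the controls, 133, 78.3 and 63.1 in hepatitis, 78.3, 88.8 and 75.2 in cirrhosis, and 471, 298 and 874 on the HCC arrays. Every HCC array exceeded 2 times the highest array of any other group, as no other group passed 133. The rise was 2.46 ± 0.34 (limma adjusted p = 0.00054).

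Cdca3, which promotes entry into mitosis and is itself degraded, was at 112, 141 and 203 in the controls, 280.1, 152 and 120.2 in hepatitis, 111, 118 and 131 in cirrhosis, and 809.7, 381 and 758 on the HCC arrays. HCC did not overlap the other groups, and the rise was 1.95 ± 0.34 (limma adjusted p = 0.00173). Ube2c, the ubiquitin-conjugating enzyme of the APC/C, rose by 1.74 ± 0.39 (limma adjusted p = 0.00607). Securin (Pttg1), which restrains separase, was at 90.2, 136 and 139.5 in control and 225, 107 and 121 in HCC, a difference of 0.23 ± 0.30 that was not called (limma adjusted p = 0.599). Only HCC replicate 1 lay above the controls.

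All 4 kinesins rose in HCC: Kif23, which bundles the midzone, by 2.07 ± 0.51, Kif2c, which depolymerises microtubules, by 1.72 ± 0.33, Kif20a, a cytokinesis motor, by 1.14 ± 0.32 and Kif11, the motor that separates the poles, by 0.78 ± 0.25 (limma adjusted p = 0.00998, 0.00273, 0.0187 and 0.0358). Kif11 was the least firm of these, since it was called in 4 of 12 fits that left out 1 array. All 5 measured spindle and cytokinesis proteins rose as well. Tacc3, which strengthens spindle fibres, was at 42.7, 50.8 and 60.7 in the controls, 89.2, 64.9 and 73.6 in hepatitis, 45.1, 48.0 and 41.1 in cirrhosis, and 234, 125 and 306 on the HCC arrays. Here the hepatitis arrays too stood above all controls, by a difference of 0.45 ± 0.25 that was not called, while HCC rose by 1.75 ± 0.25 (limma adjusted p = 0.421 and 0.00062).

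Hmmr, a hyaluronan receptor that also organises spindle poles, was at 18.2, 34.9 and 37.8 in the controls, 70.3, 38.9 and 34.5 in hepatitis, 23.96, 33.1 and 26.9 in cirrhosis, and 129.9, 108 and 81.9 on the HCC arrays. It was 1 of 3 members, with Ccnd1 and Cdk4, whose lowest HCC array was replicate 3. Hmmr rose by 1.42 ± 0.24 (limma adjusted p = 0.00144). Prc1, the crosslinker of the midzone, rose by 1.72, Racgap1, which with Kif23 forms the centralspindlin complex, by 1.34, and the spindle protein gene Nusap1 by 1.29.

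**Figure D4:**
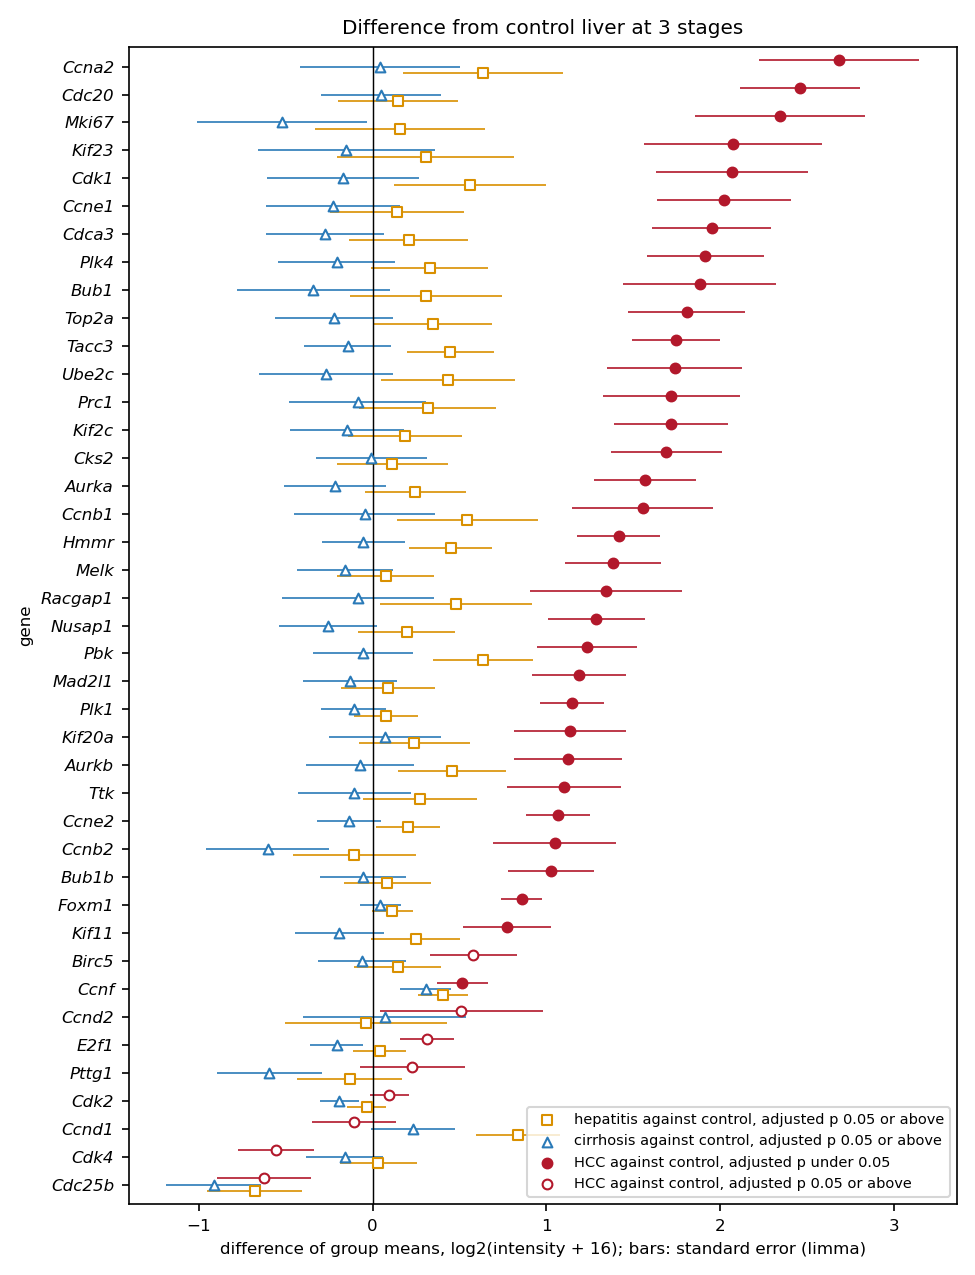
Points are differences of group means from control on the log2(intensity + 16) scale for 41 members, with standard errors of the limma fit as bars. Filled circles are the 33 members that rose in HCC; open circles are the 8 that were not called. Hepatitis squares lie between -0.68 and 0.84 and cirrhosis triangles between -0.91 and 0.30, and none of them is called.

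The 8 members not called in HCC against control were Ccnd1, Ccnd2, Cdk2, Cdk4, Cdc25b, E2f1, Birc5 and Pttg1. At an unadjusted p under 0.05 Cdk4 and Cdc25b were lower and Birc5 higher. Of the rises, the smallest were those of Ccnf, at 0.52, and Kif11, at 0.78.

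At the hepatitis stage 0 of 41 members were called in limma, beside 4% of all genes. At an unadjusted p under 0.05 Ccnd1 and Ccnf were higher and Cdc25b lower. The difference was positive in 36 members, beside 6982 of all 14217 genes. All hepatitis arrays lay above all controls in 4 members, or 9.76%, against 15.1% of all genes. They lay below all controls in 1 member, or 2.44%, against 15.6% of all genes. The median difference of the members was 0.21, and it moved with single arrays. Hepatitis replicate 1 was the highest of its group in 39 members, or 95.1%, while it was the highest in 34.9% of all genes. It lay above the highest control in 37 members, against 13 and 4 members for hepatitis replicates 2 and 3. This was not counted over all genes. Without hepatitis replicate 1 the median was 0.03 with 22 positive. Without hepatitis replicate 2 or 3 or control replicate 3 it was 0.33, 0.36 or 0.35. With hepatitis replicate 1 and control replicate 3 both left out it was 0.13 with 32 positive. The 4 members above all controls on replicate 3 were Ccnd1, Ccnf, Foxm1 and Tacc3. The 7 measured cholangiocyte markers were also all highest on hepatitis replicate 1. Their mean was 6.89 (log2) there, 5.59 and 5.65 on hepatitis replicates 2 and 3, and 5.38 to 5.48 among controls. Their defining gene Krt19 was at 226 there, against 63.3 and 56.1. Stellate cell markers were highest on that array in 7 of 9 and endothelial markers lowest in 6 of 6. The part of these cell types in the result was not tested.

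At the cirrhosis stage 0 of 41 members were called against control, beside 3.34% of all genes, and at an unadjusted p under 0.05 Cdc25b alone was lower. With weights for each group's spread, or with those 2 groups alone, limma called Cdc25b lower, at -0.91. The median difference was -0.14 with 7 members positive, -0.04 with 15 positive without control replicate 3 and -0.23 with 4 positive without control replicate 1. On all arrays 7100 of all 14217 genes were positive. Against hepatitis 0 members were called, beside 0.957% of all genes, and Ccnd1, Pbk and Tacc3 were lower at an unadjusted p under 0.05. Tacc3, at -0.59, was the 1 member called in limma under each of those other fits. All cirrhosis arrays lay below all hepatitis arrays in 18 of 41 members, or 43.9%, as in 13.7% of all genes. The median was -0.44 and, without hepatitis replicate 1, -0.18.

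Replicates differed in these genes more than in others. The median SD of a member was 0.28 (log2) among controls, 0.43 in hepatitis, 0.11 in cirrhosis, and 0.62 on the HCC arrays, and that of all genes 0.09, 0.10, 0.07 and 0.21. Control replicate 3 was the highest control in 33 of 41 members, or 80.5%, against 31.6% of all genes. Control replicate 1 was the lowest in 34, or 82.9%, against 30.2% of all genes. Macrophage markers had a mean of 9.92 on control replicate 3 and 8.91 and 8.72 on the other controls, with 10 of 10 measured markers highest there. Cirrhosis replicate 2 was the highest of its group in 33 members, against 36.2% of all genes. Skeletal muscle markers, at 7.86 on control replicate 2 against 4.66 to 4.86 on the other arrays, were high on an array that was in the middle of the controls in most members.

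HCC replicate 2 was the lowest of its group in 38 of 41 members, or 92.7%, against 34.2% of all genes. It lay above the highest control in 32 members, and replicates 1 and 3 did in 39 and 36, not counted over all genes. Of 9 measured hepatocyte markers 7 were highest on it. Cyp2e1, a pericentral hepatocyte enzyme, was at 762 there, 306 and 319 on replicates 1 and 3 and 4775 to 5368 in control. Cholangiocyte markers were lowest on it in 6 of 7, with a mean of 5.85 against 8.79 and 6.68. The median difference of the 7 in HCC from control was 1.76, and 2 of them were called higher. For this and the marker counts that follow, 20% of all genes were called higher and 18.7% lower. Of 10 T and NK cell markers 6 rose (median 0.52) and of 9 stellate cell markers 4 rose and 1 fell (median 0.56). Of 10 macrophage markers 1 rose and 5 fell (median -1.02), and of 6 endothelial markers 4 fell (median -1.09). Of 9 hepatocyte markers 4 fell (median -0.47), as did 4 of 5 erythroid markers (median -1.50). The part of these cell types in the HCC result was not tested. With replicate 2 left out 35 members were called in HCC against control and the median was 1.55.

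**Figure D5:**
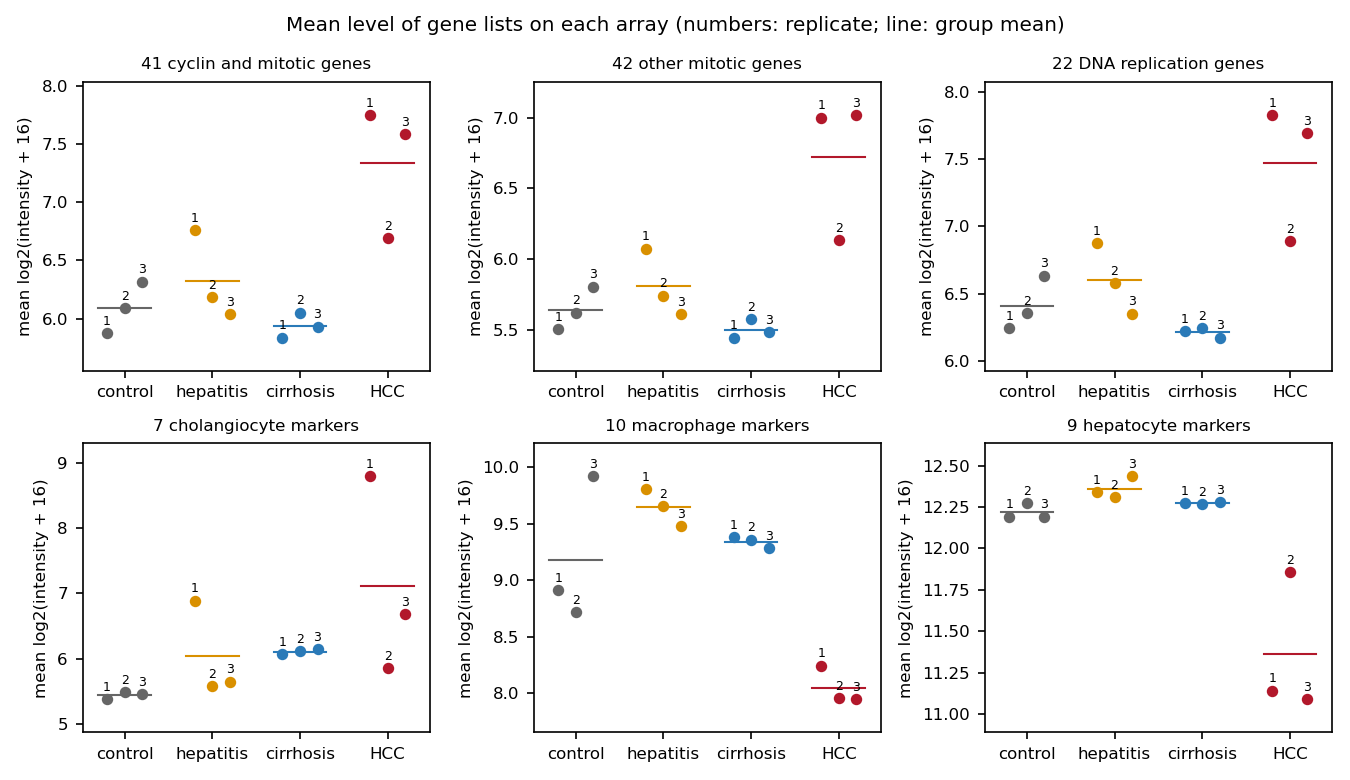
Points are the mean log2(intensity + 16) over a gene list on each array, numbered by replicate, and lines are group means; the vertical axes differ between panels. Members, other mitotic genes and DNA replication genes are each highest on replicate 1 among hepatitis arrays and lowest on replicate 2 among HCC arrays. Cholangiocyte markers are also highest on hepatitis replicate 1 and HCC replicate 1, and macrophage markers are highest among controls on replicate 3.

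Set against hepatitis, HCC had 25 members higher and 1 lower, beside 34.9% of all genes called. All HCC arrays lay above all hepatitis arrays in 19 members, or 46.3%, as in 20.9% of all genes. HCC replicate 2 was below hepatitis replicate 1 in 22 of 41 members, which was not counted over all genes. The largest rises were Cdc20 at 2.31 ± 0.34, Mki67 at 2.19 ± 0.49 and Ccna2 at 2.05 ± 0.46 (limma adjusted p = 0.000767, 0.00671 and 0.00702). Ccnb1, Aurkb, Pbk, Ttk, Kif11, Kif20a, Racgap1 and Ccnf, which rose against control, were not called against hepatitis, and that difference between comparisons was not tested. With the arrays of those 2 groups alone, 5 members were called, not counted over all genes: Foxm1, Plk1, Cdc20, Cdca3 and Tacc3. With HCC replicate 2 left out, 34 were called.

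Against cirrhosis 33 members rose in HCC, beside 37% of all genes called, and in 36 members, or 87.8%, every HCC array lay above every cirrhosis array, as in 24.1% of all genes. Mki67 had the largest difference, at 2.86 ± 0.49, followed by Ccna2 at 2.64 ± 0.46 and Cdc20 at 2.41 ± 0.34 (limma adjusted p = 0.0015, 0.00172 and 0.000579). The F test over all stages called 32 of 41 members, against 40.3% of all genes.

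Other genes of the cell cycle were taken from named lists outside the module. In HCC against control 20% of all genes were called higher. Of 42 other mitotic genes 35 rose there and 0 fell, with a median of 1.16. The largest were Ect2, the exchange factor that starts the cleavage furrow, at 2.09, the kinetochore gene Zwilch at 2.06, the chromosome motor gene Kif22 at 1.86 and Cdca2 at 1.78. Of 22 DNA replication genes 20 rose and 0 fell, also with a median of 1.16, led by the replicative helicase subunits Mcm4 at 1.84, Mcm6 at 1.60 and Mcm5 at 1.59 and the licensing factor Cdt1 at 1.40.

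The other families had calls in both directions, where 20% of all genes were called higher and 18.7% lower. Of 25 other cyclins, CDKs and E2F or B-Myb factors 13 rose and 4 fell, with a median of 0.31. Tfdp1, the E2F partner, rose by 1.62, the late repressor E2f8 by 1.51, Myc by 1.41 and E2f5 by 1.11. The 4 that fell, named after their values were seen, were the transcription cyclins Ccnh at -0.98 and Ccnc at -0.81, E2f6 at -0.45 and Cdk5 at -0.26. Of 14 APC/C subunits 5 rose and 1 fell, with a median of 0.21. Cdc23 rose by 0.96, Anapc4 by 0.76 and Anapc5 by 0.63, and Anapc11 fell by 0.80.

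Brakes of the cycle were called at more than 1 stage. Of 20 CDK inhibitors and brakes 8 rose and 2 fell in HCC, beside 20% of all genes called higher and 18.7% lower. Cdkn2a, whose locus encodes p16 and Arf, was at 6.8, 7.49 and 8.21 in the controls, 8.43, 9.11 and 8.09 in hepatitis, 12.5, 16.8 and 10.5 in cirrhosis, and 458, 399 and 361 on the HCC arrays. The HCC arrays were alike in it, and replicate 2 lay within the range of the others. It rose by 4.16 ± 0.10 (limma adjusted p = 2.04e-08). Cdkn1c, the imprinted inhibitor p57, rose by 2.11, the Cdk1-inhibiting kinase gene Pkmyt1 by 1.25 and the APC/C inhibitor gene Fbxo5 by 1.06. The 2 that fell, also named after their values were seen, were the stress gene Gadd45a at -0.67 and the pocket protein gene Rbl2 at -0.46.

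At the hepatitis stage, where 0 members were called, the 2 brakes called were the p53 targets Cdkn1a, or p21, and Ccng1. Both were higher, as were 1.87% of all genes. Cdkn1a was at 242, 198 and 89.1 in the controls, 2011, 1669 and 2595 in hepatitis, 244, 197 and 205 in cirrhosis, and 255, 315 and 419 on the HCC arrays. All hepatitis arrays stood far above the other 9, and hepatitis replicate 1 was in the middle of its group. Cdkn1a fell by 3.17 ± 0.31 from hepatitis to cirrhosis, and Ccng1 fell by 1.96 ± 0.19 (limma adjusted p = 0.00201 for both). In the other lists thymidylate synthase (Tyms) rose by 1.09 in hepatitis, and Gtse1, a microtubule-bound regulator of p53, rose by 1.25. In cirrhosis against hepatitis these fell by 1.05 and by 1.26. In cirrhosis against control 3.34% of all genes were called. The 2 called genes of these lists there were Ccnl1, a splicing cyclin, at -0.77 and the APC/C subunit gene Cdc16 at -0.30.

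Several probe sets measured 16 of the members. In the fit over all 31042 probe sets, 43 of the 62 member probe sets were higher in HCC than in control and 0 lower, beside 29.8% of all probe sets called. Any of the 6 comparisons called 49 of the 62, beside 42.6% of all probe sets. No member had probe sets called in opposite directions in any of the 6 comparisons. Of the 21 dimmer probe sets 11 were called higher in HCC against control, and 5 were under 16 on all 12 arrays. The second Ccnb1 probe set rose by 1.80, beside 1.55 for the brightest. Those of Top2a and Tacc3 rose less, by 0.55 and 0.35 beside 1.81 and 1.75. The dimmer Cdc20 probe sets differed by 0.07 to 0.69, beside 2.46. Second probe sets of Kif23 and Kif2c, at -0.10 and 0.11, were not called where the brightest rose. The same held for those of Ccne2, Kif11 and Foxm1, at 0.17, 0.145 and 0.11. It held too for a dimmer probe set of Mad2l1, at 0.06, and of Cdc20, at 0.07.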

How the data were processed

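TRIzol RNA was biotin-labelled, per the labels' protocols. The deposited values were linear intensities by probe set and array, as made by the authors. MAS5 and RMA are named in the submitters' processing notes, but no source used here says which made the values. Precision is limited by the number of arrays.

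Of 31099 probe sets 57 were array controls. Platform annotation, updated through RefSeq gene IDs, gave 20826 probe sets 1 gene, 436 several and 9780 none, and 68 gene IDs were not found. The deposited intensities were taken to log2(value + 16) and fitted on all 12 arrays with limma 3.58.1 (lmFit, eBayes) in R 4.3.3, with 6 pairwise contrasts and 2-sided moderated tests. Errors beside log2 differences are standard errors and those beside intensities standard deviations. The standard errors rest on 1 spread per gene shared by the 4 groups, so they do not show the wider spread of the HCC arrays. The fit was tested on simulated data that gave each gene 1 spread in all groups. The measured groups differed in spread, and that test does not cover this. Python 3.11.15 was used with numpy 2.4.6, pandas 2.3.3 and, for figures, matplotlib 3.10.9. Promoter sequences are from RefSeq on GRCr8, and 10 members had no entry. These were Ccna2, Ccnd1, Ccnd2, Ccne2, Foxm1, E2f1, Aurkb, Pbk, Ube2c and Racgap1, so the motif counts leave them out.

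The members and lists were chosen with earlier results of these data known. Values per array are given for the 10 members with the smallest F-test p and for Mki67, Top2a, Cdk1, Ccnb1, Ccnd1, Ccne1, Foxm1 and E2f1. Up to 4 called genes of each other list are named per contrast, by size of difference. Other members given by array were chosen after their values were seen. Alternatives were pseudocounts of 1 and 64, quantile normalization, leaving out the dimmest 30% of genes, other choices of probe set, the 2 groups alone, weights per group, the replicate number as a block and leaving out each array.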

Additional observations from a re-analysis of the deposited data

How the results depend on the processing

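The counts in HCC against control and HCC against cirrhosis stayed within 1.5 times their value under all alternatives run. For the alternatives, here and above, calls were not counted over all genes, so the members' counts have no share beside them. With the arrays of the 2 groups alone, members called were 1 in cirrhosis against control, 1 in cirrhosis against hepatitis and 5 in HCC against hepatitis, and 31 member probe sets were called in any comparison, against 49. With array weights per group, 1 member was called in each of hepatitis against control, cirrhosis against control and cirrhosis against hepatitis. The HCC counts fell with these weights. They were 27 members higher against control, 19 against hepatitis and 30 against cirrhosis, with 0 lower in each. With a pseudocount of 64 the median member difference in HCC against control was 0.80, on a scale that shrinks dim genes further. The fits on 2 groups each had the same number of arrays, fewer than the main fit, and the groups differed in spread. What part either had in these counts was not tested. Leaving out each array in turn gave 25 to 35 members in HCC against control, 19 to 34 in HCC against hepatitis, 28 to 36 in HCC against cirrhosis, 23 to 36 in the F test, 36 to 50 probe sets, and 0 in the other comparisons. Ccnd1 in HCC against control, not called, changed sign with quantile normalization (0.018) and the mean of its probe sets (0.061), and ranged from -0.285 to 0.025 with an array left out, at 0.002 without control replicate 2. Over 19 differences of named genes, 386 of 398 alternatives kept direction and call. With the replicate number as a block, 32 members were called in HCC against control, 27 in HCC against hepatitis, 33 in HCC against cirrhosis and 0 in the others. The samples share only that number: correlations of same-numbered deviations were -0.264 to 0.366 over 18 pairs, with 3 over 0.1, and 7 of 12 arrays correlated best with their own number. An alternative chosen after seeing the data left out control replicate 3 and hepatitis replicate 1 together and gave 32, 27 and 35 members in the 3 HCC comparisons and 0 in the others. Intensities near the floor limit what the dim members Ccne2, Bub1b and Ttk can show.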
